A study of Mus musculus with 8 samples.

Results

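The genes described here are the metalloproteinases of the MMP, ADAM, ADAMTS and ADAMTSL families and the tissue inhibitors of metalloproteinases (TIMPs). They were chosen by symbol, as every protein-coding mouse gene named Mmp, Adam, Adamts or Adamtsl with a number, plus Timp1 to Timp4. The annotation held 83 such genes, namely 22 MMPs, 33 ADAMs, 19 ADAMTSs, 5 ADAMTSLs and 4 TIMPs. Of these, 62 were among the 16341 genes counted and 38 were among the 11717 genes with enough counts to be tested. A gene was tested where it reached the filter (9 to 12 counts, depending on the library total) in at least 4 libraries. RNA was sequenced from cells of 4T1, a carcinoma line of the mouse mammary gland, and the comparison asks which transcripts differ between cells with and without SCA1 on their surface. The 4T1-Sca1+ and 4T1-Sca1- groups had 4 libraries each, and both came from magnetic columns after staining with a PE-coupled SCA1 antibody. The source label names the parental line as origin, the protocol label speaks of tumor, and the sort label gives CD45-Sca1+ and CD45-Sca1- cells. No treatment, allele, animal age or time point is given for either group. All libraries derive from 1 cell line, and the labels do not say whether replicates were separate sorts, so p-values measure the spread between these libraries, which may be technical.

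Metalloproteinases of these families carry zinc in the active site and are made as inactive precursors. MMPs degrade collagens, laminins and proteoglycans and activate one another, ADAMs release the outer parts of membrane proteins, and ADAMTSs cut proteoglycans and process collagen and fibrillin. ADAMTSLs resemble ADAMTSs but lack the catalytic domain, and TIMPs block the active site of most MMPs and of some ADAMs and ADAMTSs. In mammary carcinoma they are known for matrix breakdown and for the release of growth factors.

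Each 4T1-Sca1+ library held 15041995 to 16968215 counts and each 4T1-Sca1- library 13561804 to 16142836. Ly6a, which encodes SCA1, had 145 to 193 normalized counts in the former and 0 to 4.11 in the latter, as the labels give it. 4T1-Sca1+ replicate 3 stood apart from the other libraries of its group, with a chi-square per degree of freedom of 7.02 to 10.1 against 1.92 to 5.68 for all other pairs of replicates, so results that turn on it are given without it as well. The epithelial markers Epcam, Krt8 and Krt18 were abundant in both groups (3128, 13673 and 16514 mean normalized counts against 3222, 11093 and 12802), and the 11 epithelial markers summed to 61303 to 67590 against 63850 to 69031. Of the 10 tested, Krt8 and Krt18 were higher in 4T1-Sca1+ cells, 5 were lower (Cdh1, with a log2 fold change of -0.69, Cldn4, Cldn3, Krt14 and Krt7) and 3 were not called. Of 18 leukocyte markers, 14 had at most 10 counts in every library or were not counted. Among these was Ptprc, which encodes CD45, with 2 to 4 counts in the 4T1-Sca1+ libraries against 0 to 1 in the 4T1-Sca1- libraries, without overlap. The other 4 leukocyte markers (Csf1r, Cd68, Cd74 and S100a8) were all higher in 4T1-Sca1+ cells, and the list summed to 411 to 477 against 228 to 270.5 normalized counts. Of 11 fibroblast markers 4 were tested, of which Col1a1, Pdgfra and Sparc were higher (log2 fold changes 0.75, 0.63 and 0.35) and none lower, with a sum of 3101 to 3320 against 2282 to 2637, while Dcn had at most 15 counts against 1 and Pdgfrb at most 14 against 1, Col1a2 had at most 8 counts in any library and Col3a1 was not counted. The 8 endothelial markers summed to 34.7 to 43.9 against 43.4 to 66.2, with Tie1, the only 1 tested, lower. Pecam1 went the other way, with 4 to 7 counts against 0 to 2 and no overlap. Cdh5 had 0 to 2 counts against 1 to 3. The part of these markers in the results below was not tested.

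Most of the tested metalloproteinases and TIMPs differed between the fractions, and both directions occurred in the MMP, ADAM and ADAMTS families. Of the 38 tested, with an adjusted p under 0.05, 18 rose and 10 fell in 4T1-Sca1+ cells by edgeR's quasi-likelihood test, and 10 were not called. The members called were 73.7% of those tested, where 61.5% of all genes tested were called. Higher members were 47.4%, against 31.3% of all genes, and lower members were 26.3%, against 30.2% of all genes. A change of at least 2-fold was called upward for 6 of the 38 members, where this held for 612 of 11717 genes (5.22%). Downward it was called for 2 of the 38 members, where this held for 103 of 11717 genes (0.879%). The normalized counts of the groups did not overlap for 24 members (63.2%), against 54.7% of all genes. The median log2 fold change, given throughout as 4T1-Sca1+ minus 4T1-Sca1-, was 0.28 over the tested members and 0.01 over all genes. Among MMPs, 8 of 12 tested rose and 2 fell. Among ADAMs 3 of 12 rose and 3 fell, among ADAMTSs 5 of 9 rose and 4 fell, among ADAMTSLs 2 of 3 rose, and of the 2 TIMPs tested 1 fell. Mmp19 and Mmp28 reached the filter in every 4T1-Sca1+ library and in no 4T1-Sca1- library, so they were tested only through the group in which they are high, and no member had the reverse pattern. In bulk libraries, fewer expressing cells and less RNA per cell cannot be told apart.

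**Figure D1:**
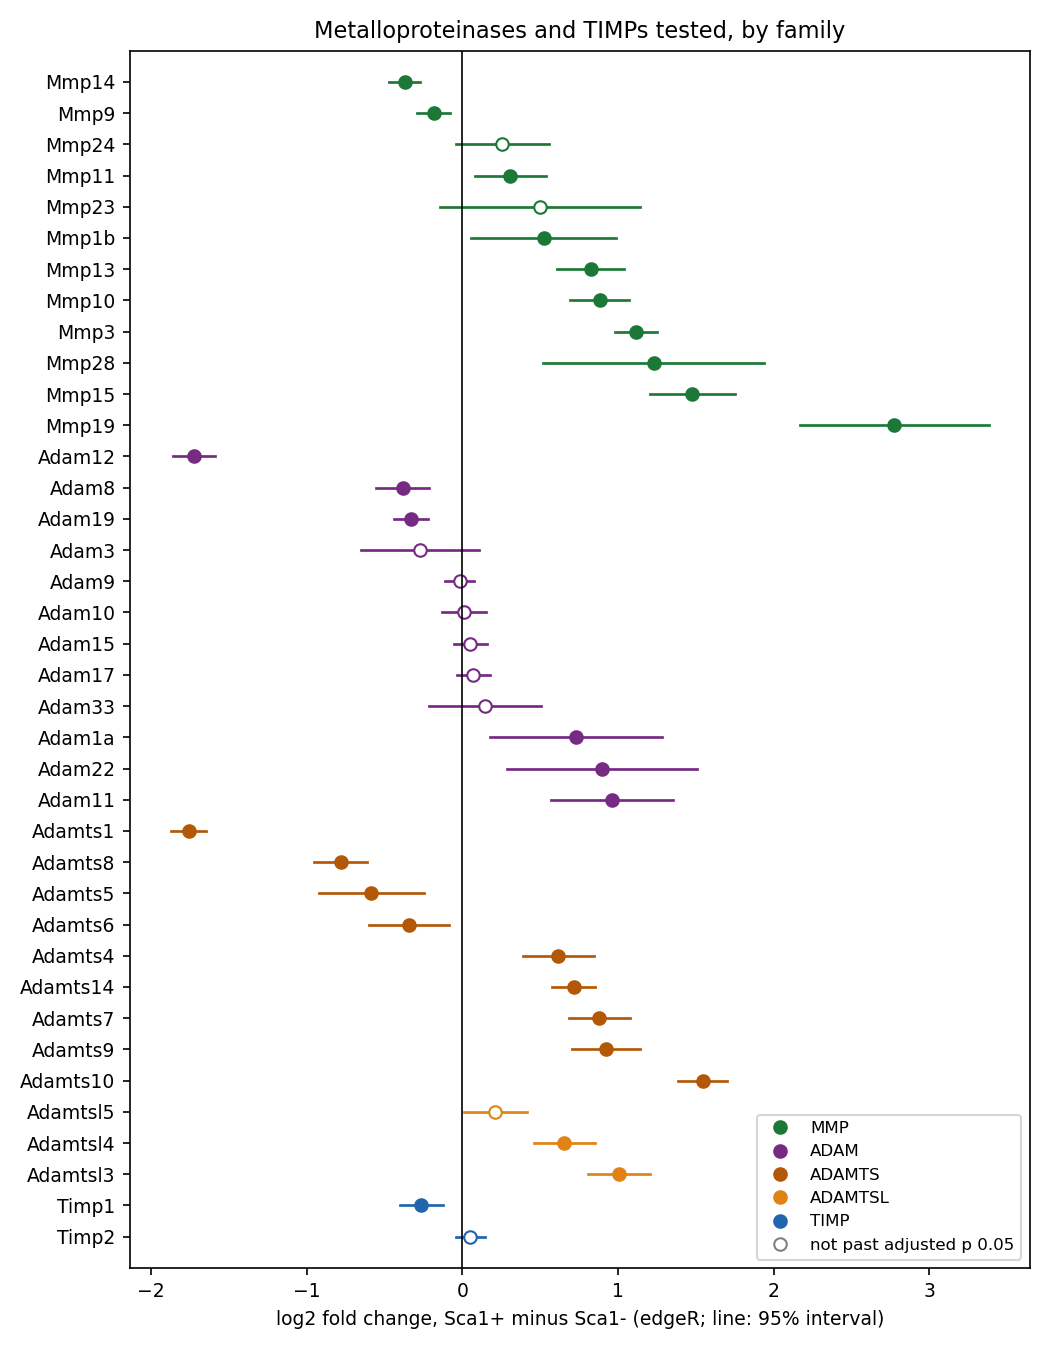
Log2 fold change (horizontal axis, 4T1-Sca1+ minus 4T1-Sca1-) with its 95% interval for the 38 members tested, colored by family; filled points passed an adjusted p of 0.05. Values run from -1.76 for Adamts1 to 2.78 for Mmp19, and most MMP points lie to the right of 0.

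Stromelysins and collagenases cut matrix proteins outside the cell, and every member of these classes that was tested rose in 4T1-Sca1+ cells. This held for all 3 stromelysins (Mmp3, Mmp10 and Mmp11) and for both collagenases tested (Mmp13 and Mmp1b), with log2 fold changes of 0.31 to 1.12, although the calls of Mmp1b and Mmp11 were lost when single libraries were left out. Apart from Mmp11, these genes lie in a cluster of 9 MMP genes on chromosome 9 (GRCm38, 7272514 to 7699585), of which 4 were tested. Between them lies Mmp1a, annotated as a polymorphic pseudogene and so no member, which was not called (log2 fold change 0.11). The sequence just upstream of these 4 genes is shown because they rose together and share promoter motifs. Each line gives the 120 bases before the RefSeq start (GRCm38.p6), read 5′ to 3′ on the gene's strand. Capitals mark TGAGTCA or TGACTCA, the AP-1 motif, and TATAAA, the letters of the TATA box, wherever they stand. The last bases of the Mmp1b line lie within the gene as GENCODE annotates it.
Mmp3 (chr9:7445702-7445821, plus strand): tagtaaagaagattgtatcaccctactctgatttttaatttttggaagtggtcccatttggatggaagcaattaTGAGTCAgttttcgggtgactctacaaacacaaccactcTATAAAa
Mmp10 (chr9:7502222-7502341, plus strand): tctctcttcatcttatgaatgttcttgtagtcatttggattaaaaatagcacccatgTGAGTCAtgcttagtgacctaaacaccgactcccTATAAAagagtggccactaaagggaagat
Mmp13 (chr9:7272394-7272513, plus strand): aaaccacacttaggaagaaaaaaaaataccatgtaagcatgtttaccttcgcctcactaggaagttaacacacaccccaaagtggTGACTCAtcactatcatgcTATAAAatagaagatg
Mmp1b (chr9:7388027-7388146, minus strand): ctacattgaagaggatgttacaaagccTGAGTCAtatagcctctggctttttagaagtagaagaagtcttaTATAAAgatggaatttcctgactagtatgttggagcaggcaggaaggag
The AP-1 motif began 46 bases before the start of Mmp3, 63 before that of Mmp10, 35 before that of Mmp13 and 93 before that of Mmp1b. The window searched ran from 250 bases before the start to 50 after it. Both AP-1 spellings are the reverse complement of each other, and TATAAA was searched on the gene's strand only. Of 32851 mouse promoters in the RefSeq table, 5.2% held the AP-1 motif and 8.32% held TATAAA. Promoters were found for 25 of the 38 tested members, and 5 of them held the AP-1 motif. No entry was matched for Mmp9, Mmp19, Adam3, Adam9, Adam11, Adam12, Adam33, Adamts4, Adamts5, Adamts6, Adamts7, Adamts8 or Adamts10. The fifth was Adam19, 131 bases before the start, which was lower in 4T1-Sca1+ cells. TATAAA stood in the same 4 MMP promoters and in that of Adamts1, 32 bases before its start, a gene that fell. In the MMP promoters its distance to the start varied, at 7 bases for Mmp3, 29 for Mmp10, 16 for Mmp13 and 49 for Mmp1b. Whether these letters act as TATA boxes, and whether the RefSeq starts are those used in these cells, was not tested. The cyclic AMP response element TGACGTCA, in 1.79% of all promoters, was in none of the 25. The STAT motif TTCNNNGAA (8.3% of all promoters) was in that of Mmp23, and the antioxidant response element TGACNNNGC (12.4%) was in those of Adamtsl5, Mmp15, Mmp24 and Timp2, both searched on both strands. These matches are descriptions of sequence and say nothing of binding.

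Mmp3 (ENSMUSG00000043613; chromosome 9, 7445822 to 7455975, plus strand) encodes stromelysin-1, which cuts laminin, fibronectin and proteoglycans and activates other MMPs. Its normalized counts were 9314, 9225, 7440 and 9145 in 4T1-Sca1+ replicates 1 to 4, and 4160, 3806, 4246 and 4111 in 4T1-Sca1- replicates 1 to 4. All 4T1-Sca1+ libraries lay above all 4T1-Sca1- libraries, and replicate 3 was the lowest of the former. Mmp3 rose 2.17-fold, a log2 fold change of 1.12 ± 0.06 (standard error, as for every fold change below) with an adjusted p of 1.2e-10 (edgeR). Without 4T1-Sca1+ replicate 3 the log2 fold change was 1.19. Mmp10 (ENSMUSG00000047562; chromosome 9, 7502352 to 7510240, plus strand), stromelysin-2, had 264 to 334 against 148 to 176 normalized counts, with no overlap and a log2 fold change of 0.88 ± 0.09 (adjusted p = 2.21e-07). Mmp13 (ENSMUSG00000050578; chromosome 9, 7272514 to 7283331, plus strand), the main collagenase of the mouse, had 196 to 243 against 106 to 142, again without overlap, for a log2 fold change of 0.82 ± 0.10 (adjusted p = 2.22e-06). Mmp1b (ENSMUSG00000041620; chromosome 9, 7368239 to 7388047, minus strand), a rodent relative of interstitial collagenase, had 23.9 to 51.2 against 25.1 to 36.7, and its groups overlapped because 4T1-Sca1+ replicate 3 lay lowest of all libraries. Its log2 fold change of 0.52 ± 0.22 barely passed (adjusted p = 0.0494) and was 0.71 (adjusted p = 0.00144) without that replicate, but the call was lost when any of 6 other libraries was left out, with adjusted p of 0.0747 to 0.137. With all libraries it was also lost under DESeq2 size factors (adjusted p = 0.0544), limma-voom (adjusted p = 0.0972) and DESeq2 (adjusted p = 0.0697). Mmp11 (ENSMUSG00000000901; chromosome 10, 75923222 to 75936496, minus strand), stromelysin-3, which furin activates inside the cell, had 289.7 to 468 against 283 to 316, with overlapping groups and a log2 fold change of 0.31 ± 0.11 (adjusted p = 0.0192). Its highest value was in 4T1-Sca1+ replicate 3, without which the log2 fold change was 0.18 and not called (adjusted p = 0.0605). The call was also lost without 4T1-Sca1- replicate 1 (0.29, adjusted p = 0.0612) or replicate 4 (0.28, adjusted p = 0.0562). Mmp11 shares 5.58% of its exon length with Chchd10 on the opposite strand, which rose by 0.43 on the log2 scale (adjusted p = 0.0019), and Mmp1b shares 10.8% with Mmp12. Because Mmp3 and Mmp10, and Mmp1b and Mmp1a, are similar in sequence and the counting of shared reads is not given in the sources used here, their separate values are uncertain to that extent.

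The MMPs with the widest differences were less abundant genes. Mmp19 (ENSMUSG00000025355; chromosome 10, 128790910 to 128800824, plus strand) encodes a secreted enzyme that cuts basement membrane proteins. By library, its normalized counts were 31.1, 39.5, 31.9 and 29.8 in 4T1-Sca1+ replicates 1 to 4, and 4.78, 2.05, 5.57 and 6.85 in 4T1-Sca1- replicates 1 to 4. The groups stood far apart, and Mmp19 rose 6.85-fold, a log2 fold change of 2.78 ± 0.29 (adjusted p = 2.44e-07). Its exons share 22.3% of their length with Tmem198b on the opposite strand, a gene that rose by only 0.22 on the log2 scale (adjusted p = 0.0362), and without strand the reads of the shared stretch cannot be told apart. Mmp15 (ENSMUSG00000031790; chromosome 8, 95352268 to 95375080, plus strand) encodes a membrane-type MMP that is anchored in the plasma membrane. In the 8 libraries normalized counts were 113, 125, 135 and 117 in 4T1-Sca1+ replicates 1 to 4, and 40.1, 54.4, 37.9 and 44.5 in 4T1-Sca1- replicates 1 to 4. These groups did not overlap either, and Mmp15 rose 2.79-fold, a log2 fold change of 1.48 ± 0.13 (adjusted p = 3.45e-08). Mmp28 (ENSMUSG00000020682; chromosome 11, 83440768 to 83463071, minus strand), epilysin, was near the filter, with normalized counts of 14.6, 17.8, 11.97 and 10.5 in the 4T1-Sca1+ libraries against 3.82, 5.13, 8.9 and 5.71 in the 4T1-Sca1- libraries. Its groups were close but did not overlap, and its log2 fold change was 1.23 ± 0.34 (adjusted p = 0.00435). Mmp28 shares part of an exon with 1700020L24Rik on the opposite strand, a gene with 47 counts over all libraries. Mmp23 (log2 fold change 0.50, 95% interval -0.14 to 1.14) and the membrane-type Mmp24 (0.26, -0.04 to 0.55) were not called, although Mmp24 was called without 4T1-Sca1+ replicate 2 (0.34, adjusted p = 0.0458).

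Both MMPs that fell were abundant. Mmp14 (ENSMUSG00000000957; chromosome 14, 54431612 to 54445364, plus strand) encodes the membrane-type enzyme that activates the gelatinase MMP2 with the help of TIMP2. Counts after normalization were 4100, 4103, 4417 and 4336 in 4T1-Sca1+ replicates 1 to 4, and 5134, 5816, 5529 and 5648 in 4T1-Sca1- replicates 1 to 4. The groups did not overlap, and Mmp14 fell by 0.37 ± 0.05 on the log2 scale (adjusted p = 2.65e-06). Mmp9 (ENSMUSG00000017737; chromosome 2, 164940780 to 164955850, plus strand) encodes gelatinase B, which cuts denatured collagen and type IV collagen. Library by library, normalized counts were 4998, 4822, 5433 and 4736 in 4T1-Sca1+ replicates 1 to 4, and 5375, 6107, 5654 and 5779 in 4T1-Sca1- replicates 1 to 4. 4T1-Sca1+ replicate 3 lay above 4T1-Sca1- replicate 1, so these groups overlapped, and Mmp9 fell by 0.18 ± 0.05 on the log2 scale (adjusted p = 0.00436). The other gelatinase, Mmp2, had at most 3 counts in any library and was not tested.

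**Figure D2:**
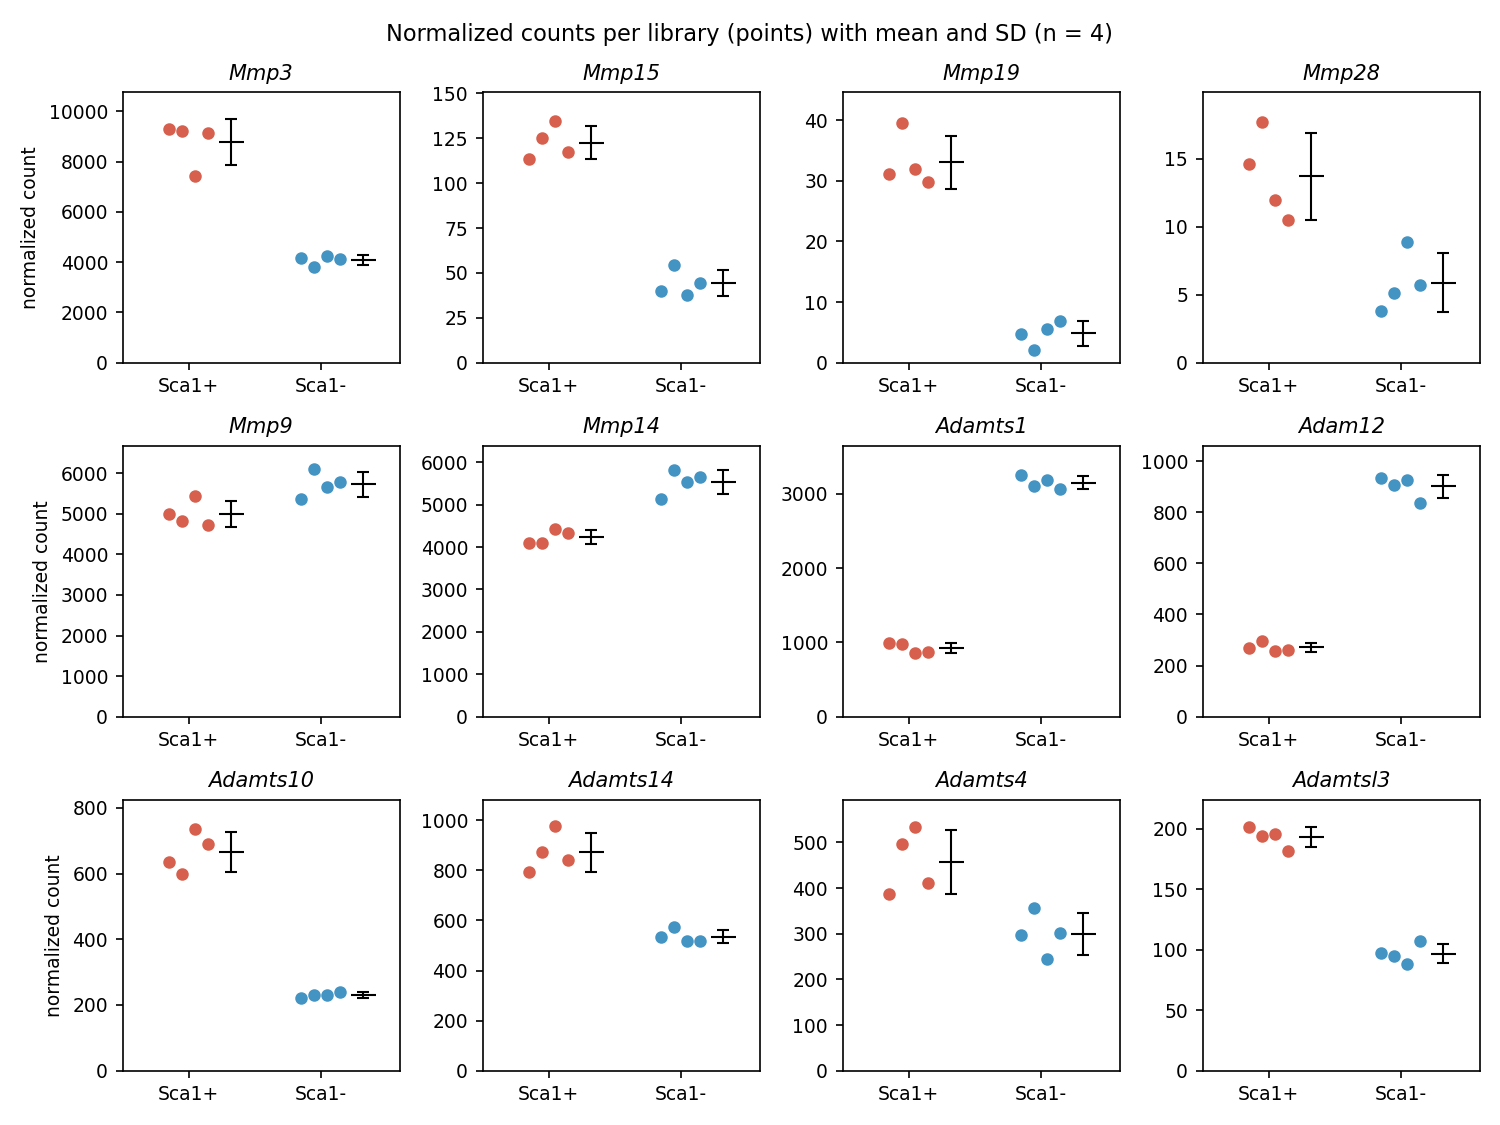
Normalized counts (vertical axis, from 0) of 12 members in each library (points), with mean and SD of 4 libraries (bars), 4T1-Sca1+ in red and 4T1-Sca1- in blue. Adamts1 (859 to 992 against 3069 to 3255) and Adam12 (256 to 298 against 837 to 936) show the widest separation downward, and only Mmp9 has overlapping groups.

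Among the inhibitors, Timp1 fell slightly and Timp2 was not called. Timp1 (ENSMUSG00000001131; chromosome X, 20870166 to 20874735, plus strand), listed like every gene below in the order of replicates 1 to 4, had normalized counts of 949.6, 981, 784 and 851 in the 4T1-Sca1+ libraries against 1030, 1110, 1059 and 1122 in the 4T1-Sca1- libraries. Every 4T1-Sca1+ value was below every 4T1-Sca1- value, and Timp1 fell by 0.26 ± 0.07 on the log2 scale (adjusted p = 0.00197). Timp2 (ENSMUSG00000017466; chromosome 11, 118301069 to 118355740, minus strand), which inhibits MMPs and also takes part in MMP2 activation, had normalized counts of 6390, 6601, 7126 and 6684 in the 4T1-Sca1+ libraries against 6252, 6576, 6451 and 6803 in the 4T1-Sca1- libraries. These groups overlapped, with a log2 fold change of 0.05 (95% interval -0.04 to 0.15, adjusted p = 0.327). Timp3, the inhibitor bound to the matrix, had 1 count in all, in 4T1-Sca1- replicate 3, and Timp4 had 1 count in all, in 4T1-Sca1+ replicate 1, so neither could be compared at this depth.

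Levels of different genes are compared per kb of exon. By normalized count per kb, averaged over all 8 libraries, Mmp3 was highest of all members at 3571, followed by Timp2 (1697), Mmp9 (1515), Timp1 (1110) and Mmp14 (819.7). Adam9 (475), Adamts1 (384), Adam10 (359), Adam15 (324) and Adam17 (249) came next. Mmp3 had 4876 ± 498 against 2266 ± 106 per kb (SD, n = 4), and Mmp9 had 1412 ± 87.6 against 1619 ± 85.8. Timp2 had 1720 ± 79.5 against 1674 ± 59.2 and Timp1 1004 ± 102 against 1216 ± 48.5. Mmp3 was the highest member in both groups, but stood nearer to Timp2 and Mmp9 in 4T1-Sca1- cells. Mmp3 alone made up 60.0 to 66.9% of the summed MMP level per kb in 4T1-Sca1+ cells, against 41.2 to 46.2% in 4T1-Sca1- cells. Mmp3, Mmp9 and Mmp14 together held 93.1 to 93.9% and 93.8 to 94.6% of it, so the sum hardly reflects the other MMPs. The summed MMP level was 6883 to 7743 per kb against 4998 to 5204, and the summed TIMP level was 2673 to 2799 against 2765 to 3010. The ratio of summed MMP to summed TIMP level was 2.54 to 2.86 in 4T1-Sca1+ cells, against 1.71 to 1.83 in 4T1-Sca1- cells, and the groups did not overlap. The higher sum and ratio rest on Mmp3, as Mmp9 and Mmp14 (711 ± 27.2 against 928 ± 48.7 per kb) were lower in 4T1-Sca1+ cells. The ratio of Mmp3, which rose, to Timp1, which fell, was 4.64 to 5.3 against 1.69 to 1.99, while the more abundant Timp2 was not called. The ADAM sum was 1621 to 1677 per kb against 1677 to 1773, and the ADAMTS sum was 622 to 686 against 912 to 942. Adamts1 made up 23.6 to 30.0% of the latter in 4T1-Sca1+ cells and 62.1 to 65.9% in 4T1-Sca1- cells. The lower ADAMTS sum rests on Adamts1 (174 ± 12.9 against 595 ± 15.9 per kb), as 5 of the 9 ADAMTSs tested rose and 4 fell. These sums are of transcripts and do not measure enzyme activity.

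**Figure D3:**
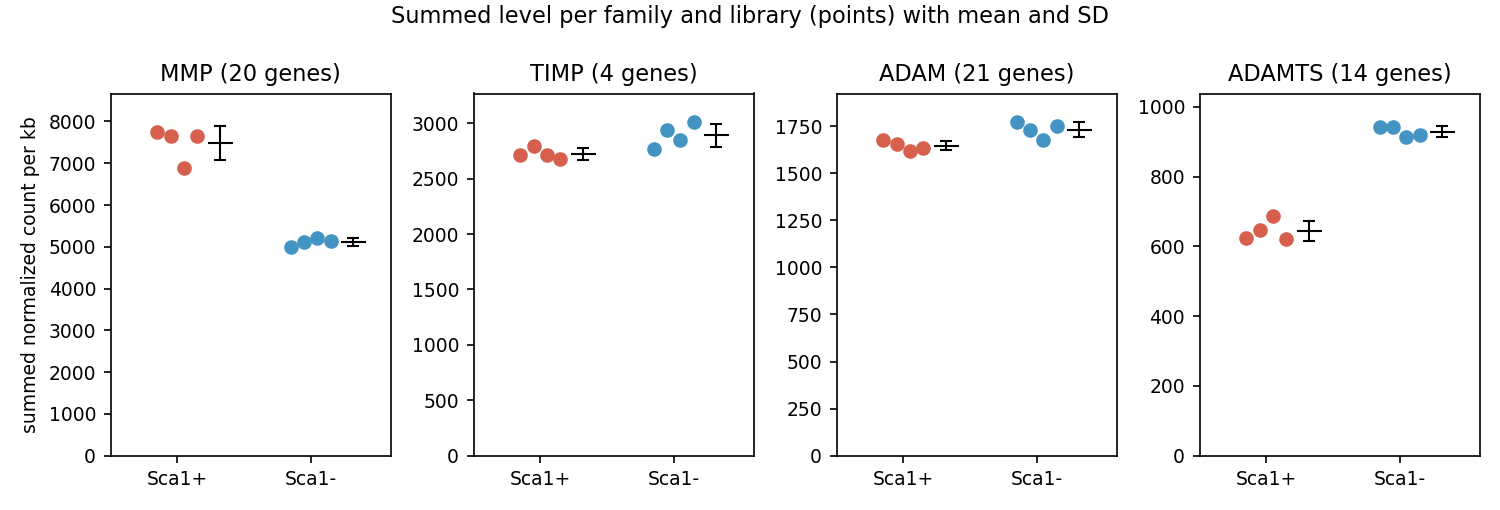
Summed normalized count per kb of exon (vertical axis, from 0) of the counted MMPs, TIMPs, ADAMs and ADAMTSs in each library (points), with mean and SD of 4 libraries (bars). The MMP sum is higher in all 4T1-Sca1+ libraries (6883 to 7743 against 4998 to 5204) and the ADAMTS sum is lower in all of them (622 to 686 against 912 to 942). The higher MMP sum rests on Mmp3 and the lower ADAMTS sum on Adamts1.

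**Figure D4:**
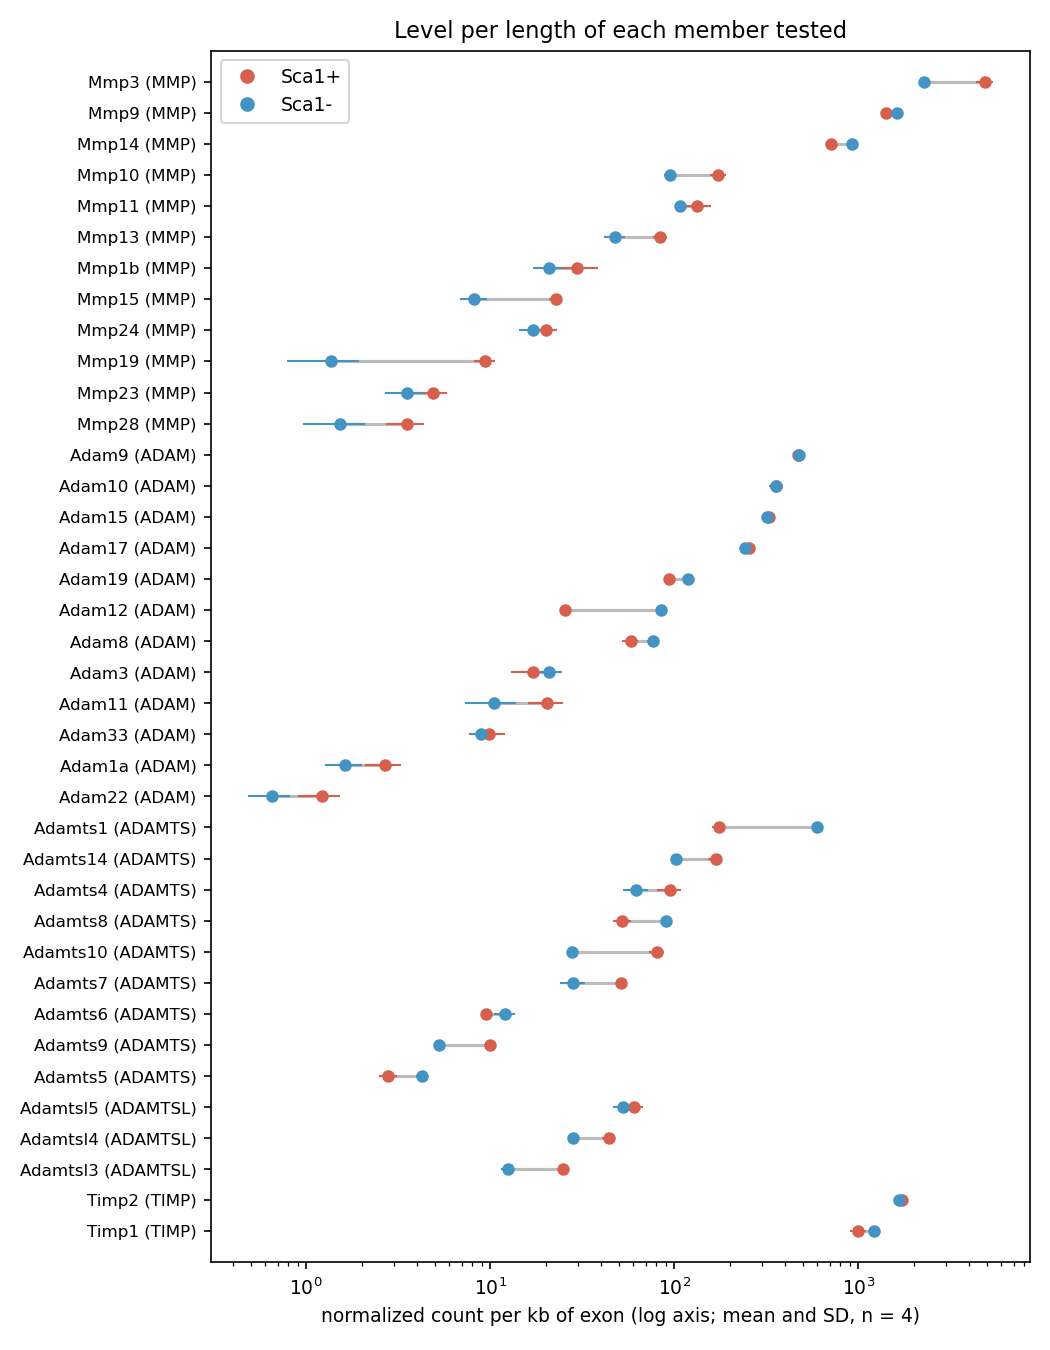
Mean normalized count per kb of exon (horizontal log axis) with SD (n = 4) of each member tested, 4T1-Sca1+ in red and 4T1-Sca1- in blue, ordered within families by level. Mmp3 has the highest point of all (4876 in 4T1-Sca1+ cells), and the pairs of points for Adam9, Adam10, Adam15 and Adam17 nearly coincide.

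Among the ADAMs, the abundant Adam9, Adam10, Adam15 and Adam17 were not called, with 95% intervals of the log2 fold change between -0.13 and 0.18, whereas Adam12 was much lower in 4T1-Sca1+ cells. Adam12 (ENSMUSG00000054555; chromosome 7, 133883199 to 134232146, minus strand) encodes a protease that can release ligands of the EGF receptor. The 8 normalized counts were 269, 298, 256 and 261 in 4T1-Sca1+ replicates 1 to 4, and 936, 908, 926 and 837 in 4T1-Sca1- replicates 1 to 4. The groups were far apart, and Adam12 fell by 1.72 ± 0.06 on the log2 scale (adjusted p = 4.12e-13), to 0.303 of its level in 4T1-Sca1- cells. Adam8 and Adam19 also fell, by 0.38 ± 0.08 (adjusted p = 0.000562) and 0.33 ± 0.05 (adjusted p = 2.87e-05) on the log2 scale, each with no overlap between the groups. Adam9 (ENSMUSG00000031555; chromosome 8, 24949611 to 25016927, minus strand), the most abundant ADAM per kb, had normalized counts of 1957, 1872, 1945 and 1964 in the 4T1-Sca1+ libraries against 2015, 1956, 1887 and 2035 in the 4T1-Sca1- libraries. Adam10 (ENSMUSG00000054693; chromosome 9, 70678997 to 70780229, plus strand), which sheds Notch receptors and cadherins, had normalized counts of 1929, 1821, 1562 and 1740 in the 4T1-Sca1+ libraries against 1976, 1701, 1621 and 1762 in the 4T1-Sca1- libraries. Adam15 (ENSMUSG00000028041; chromosome 3, 89338542 to 89349996, minus strand), which carries an integrin-binding motif, had normalized counts of 1991, 1955, 2197 and 1932 in the 4T1-Sca1+ libraries against 1864, 2067, 1935 and 1998 in the 4T1-Sca1- libraries. For each of these 3 genes the groups overlapped. The log2 fold change was -0.02 for Adam9 (95% interval -0.11 to 0.08), 0.01 for Adam10 (-0.13 to 0.15) and 0.05 for Adam15 (-0.06 to 0.16), and none was called. Adam17, the sheddase of TNF and many ligands of the EGF receptor, had 1684 to 1898 against 1675 to 1834 normalized counts, with a log2 fold change of 0.07 (-0.03 to 0.18), also not called. It was called without 4T1-Sca1+ replicate 3 (0.11, adjusted p = 0.0428).

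The ADAMs that rose were scarce. Adam11 and Adam22 encode proteins without protease activity that are best known from neurons. Adam11 had 89.6 to 145 against 43.4 to 81.1 normalized counts and rose by 0.96 ± 0.19 on the log2 scale (adjusted p = 0.000243). Adam22 had 11.97 to 22.8 against 6.85 to 12.4, with overlapping groups, and rose by 0.90 ± 0.29 (adjusted p = 0.0126), a call lost without 4T1-Sca1+ replicate 4 (0.74, adjusted p = 0.0516). Adam1a, a gene known from sperm, had 16.4 to 25.9 against 9.24 to 14.8 and rose by 0.73 ± 0.26 (adjusted p = 0.0225). That call was lost without 4T1-Sca1+ replicate 3 (0.59, adjusted p = 0.0774), 4T1-Sca1- replicate 1 (0.66, adjusted p = 0.0651) or 4T1-Sca1- replicate 2 (0.61, adjusted p = 0.0711), and with DESeq2 (0.73, adjusted p = 0.0607). Of the exon length of Adam1a, 24.0% is shared with Mapkapk5 on the same strand. Adam3 (log2 fold change -0.27, 95% interval -0.65 to 0.11) and Adam33 (0.15, -0.21 to 0.51) were not called, although Adam3 was called without 4T1-Sca1+ replicate 2 (-0.43, adjusted p = 0.0497).

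All 9 ADAMTS genes tested were called, where 61.5% of all genes were, and none of them had overlapping groups, where this held for 54.7% of all genes. Adamts1 (ENSMUSG00000022893; chromosome 16, 85793827 to 85803113, minus strand) encodes a protease that cuts the proteoglycans aggrecan and versican. Its normalized counts were 992, 972, 859 and 871 in 4T1-Sca1+ replicates 1 to 4, and 3255, 3100, 3186 and 3069 in 4T1-Sca1- replicates 1 to 4. Adamts1 fell by 1.76 ± 0.05 on the log2 scale (adjusted p = 3.91e-14), to 0.296 of its level in 4T1-Sca1- cells, the lowest fold change of any member. Its neighbor on chromosome 16, Adamts5 (85856173 to 85901828), another aggrecan-cutting enzyme, had 25.6 to 33.9 against 43.1 to 50.2 normalized counts and fell by 0.59 ± 0.16 on the log2 scale (adjusted p = 0.00421). Adamts8 had 202 to 263 against 387 to 449 and fell by 0.78 ± 0.08 (adjusted p = 2.33e-07). Adamts6 had 68.5 to 78.8 against 84.2 to 111 and fell by 0.34 ± 0.12 (adjusted p = 0.0217), a call lost without 4T1-Sca1+ replicate 1 (-0.31, adjusted p = 0.0578) or 4T1-Sca1- replicate 1 (-0.25, adjusted p = 0.0976).

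The ADAMTS genes that rose include enzymes that act on fibrillin and collagen. Adamts10 (ENSMUSG00000024299; chromosome 17, 33524204 to 33553782, plus strand), which is linked to fibrillin microfibrils, had normalized counts of 635, 599, 737 and 690.5 in the 4T1-Sca1+ libraries against 222, 229, 230.4 and 241 in the 4T1-Sca1- libraries. It rose 2.92-fold, a log2 fold change of 1.54 ± 0.07 (adjusted p = 9.69e-12). Adamts14 (ENSMUSG00000059901; chromosome 10, 61197112 to 61273438, minus strand), which removes the N-propeptide of procollagen, had normalized counts of 794, 875, 978 and 840.2 in the 4T1-Sca1+ libraries against 532, 572, 516 and 519 in the 4T1-Sca1- libraries, and its log2 fold change was 0.72 ± 0.07 (adjusted p = 5.06e-08). Adamts4 (ENSMUSG00000006403; chromosome 1, 171250421 to 171260637, plus strand), an aggrecan-cutting enzyme like Adamts1 and Adamts5, rose, whereas those fell. Its normalized counts were 387, 496, 535 and 412 in the 4T1-Sca1+ libraries against 297, 356, 244 and 301 in the 4T1-Sca1- libraries, with a log2 fold change of 0.62 ± 0.11 (adjusted p = 8.72e-05). Adamts9, which cuts versican, rose by 0.93 ± 0.10 (adjusted p = 6.01e-07) and Adamts7, which cuts cartilage oligomeric matrix protein, by 0.88 ± 0.09 (adjusted p = 3.14e-07) on the log2 scale. Adamts7 shares 1.94% of its exon length with Tbc1d2b on the opposite strand. Among the ADAMTSLs, Adamtsl3 (ENSMUSG00000070469; chromosome 7, 82335694 to 82614450, plus strand) had normalized counts of 201, 194, 196 and 181 in the 4T1-Sca1+ libraries against 97.4, 94.5, 87.9 and 107 in the 4T1-Sca1- libraries. The groups did not overlap, and the log2 fold change was 1.01 ± 0.09 (adjusted p = 6.66e-08). Adamtsl4, which binds fibrillin, rose by 0.65 ± 0.09 (adjusted p = 1.03e-05). Adamtsl5 was not called (log2 fold change 0.21, adjusted p = 0.062), but was called without 4T1-Sca1+ replicate 2 (0.26, adjusted p = 0.0381).

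Genes that act on these enzymes or are cut by them were read from the same fit. Of 23 regulators, 16 were tested, 8 rose and 1 fell, where 31.3% of all genes tested rose and 30.2% fell, with a median log2 fold change of 0.22 against 0.01 over all genes. With GC-corrected offsets, described below, 7 regulators were higher and 7 lower, where 3090 of all 11717 genes tested were higher and 4749 lower. Lcn2, lipocalin-2, whose human form is known to form a complex with MMP9 and protect it from degradation, had 13412 ± 916 against 3162 ± 217 normalized counts (mean ± SD, n = 4). Its log2 fold change was 2.10 ± 0.06 (adjusted p = 1.23e-14). Papln, papilin, a matrix protein related to the ADAMTSLs, had 297 ± 59.2 against 95.5 ± 16.6, which gave a log2 fold change of 1.65 ± 0.14 (adjusted p = 1.73e-08). Furin, the convertase that removes the propeptide of membrane-type MMPs and ADAMs, rose by 0.35 ± 0.06 on the log2 scale (adjusted p = 0.000166). Bsg, which encodes the MMP inducer basigin, fell by 0.45 ± 0.05 (adjusted p = 1.72e-07). Lrp1, an uptake receptor for several MMPs, was not called (log2 fold change 0.08, 95% interval -0.04 to 0.19). Chosen after their values were seen, Reck, a membrane-anchored inhibitor of MMPs, rose by 0.84 ± 0.19 (adjusted p = 0.000924), and Rhbdf1 (0.02) and Rhbdf2 (0.11), the iRhoms that bring ADAM17 to the surface, were not called. Of 9 other enzymes of the wider metzincin group, 2 were tested, and Bmp1, the procollagen C-proteinase, rose by 0.23 ± 0.05 on the log2 scale (adjusted p = 0.000792) while Pappa2 was not called (0.52, adjusted p = 0.0674). Pappa2 was called without 4T1-Sca1+ replicate 4 (0.65, adjusted p = 0.0268) or 4T1-Sca1- replicate 4 (0.67, adjusted p = 0.0349).

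Of 30 genes for membrane proteins shed by ADAM10 and ADAM17, 27 were tested, of which 10 rose and 12 fell, where 31.3% of all genes rose and 30.2% fell, with a median log2 fold change of -0.12. The chemokine gene Cx3cl1 had 1824 ± 224 against 756 ± 61.7 normalized counts and was the only one called with a change of at least 2-fold, a log2 fold change of 1.28 ± 0.08 (adjusted p = 1.81e-10). Among the 3 most abundant others, Cd44, the hyaluronan receptor, fell by 0.52 ± 0.05 (adjusted p = 1.65e-07), App, the amyloid precursor, fell by 0.19 ± 0.04 (adjusted p = 0.001) and the proteoglycan gene Sdc4 rose by 0.32 ± 0.04 on the log2 scale (adjusted p = 2.71e-06). Of 22 matrix substrates 13 were tested, of which 5 rose and 5 fell, with a median of 0.02. With GC-corrected offsets 4 were higher and 9 lower, where 3090 of all 11717 genes tested were higher and 4749 lower. Lama3 (-1.27, adjusted p = 1.18e-12) and Lamb3 (-1.02, adjusted p = 1.92e-11), chains of the epithelial basement membrane laminin, and Tnc (-1.29, adjusted p = 1.81e-10), tenascin-C, fell. Col2a1 (1.49, adjusted p = 5.93e-06), a fibrillar collagen, Nid1 (1.25, adjusted p = 7.63e-08), a basement membrane linker, and Lama5 (0.51, adjusted p = 5.22e-07), a laminin chain, rose. Fn1, fibronectin, the most abundant substrate, was not called (0.03, 95% interval -0.06 to 0.12), nor was Hspg2, perlecan (-0.11, -0.23 to 0.01), although Hspg2 was called without 4T1-Sca1+ replicate 3 (-0.17, adjusted p = 0.00294). Among the proteoglycan genes of this list, Vcan had at most 11 counts and Acan, Bcan and Ncan at most 1 count in any library. Hspg2 was abundant, with mean normalized counts of 17888 in 4T1-Sca1+ and 19483 in 4T1-Sca1- cells.

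The remaining members gave no test. Of the 24 that were counted but not tested, 19 had at most 3 counts in each library. Adam4, which had the highest single count of them, had 10, 7, 20 and 8 counts in 4T1-Sca1+ replicates 1 to 4 and 15, 8, 7 and 4 counts in 4T1-Sca1- replicates 1 to 4, and its groups overlapped. Mmp12, the macrophage elastase, had 1 to 8 counts against 1 to 6. The others were Mmp2, Mmp7, Mmp17, Mmp20, Mmp21, Mmp25 and Mmp27 among the MMPs, Adam1b, Adam5, Adam18, Adam21, Adam23, Adam28, Adam30 and Adam32 among the ADAMs, Adamts12, Adamts13, Adamts15, Adamts16 and Adamts17 among the ADAMTSs, and Timp3 and Timp4. For the 21 members without a row in the count table, among them the collagenase Mmp8, the membrane-type Mmp16 and the procollagen-processing enzymes Adamts2 and Adamts3, no value is given.

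A correction for the GC content of transcripts changed several of the smaller differences. With GC-corrected offsets the called genes split into 3090 higher and 4749 lower (39.4% higher), against 3668 and 3538 (50.9%) without them, and 18 members were called higher and 12 lower. Mmp11 was then not called (log2 fold change 0.07, adjusted p = 0.487), and Adam15 (-0.26, adjusted p = 6e-07) and Timp2 (-0.11, adjusted p = 0.0078) were called lower. Adam17 was called higher (0.10, adjusted p = 0.0152). Mmp14 (-0.62) and Mmp9 (-0.35) fell further, and the log2 fold changes of Adam11 (0.61), Adamts14 (0.37) and Adamtsl4 (0.30) shrank. Outside the families, Furin (0.07, adjusted p = 0.0989) and Bmp1 (-0.01, adjusted p = 0.89) lost their calls, Lama5 shrank to 0.18, and Lrp1 (-0.19, adjusted p = 2.43e-05), Fn1 (-0.10, adjusted p = 0.0143) and Hspg2 (-0.49, adjusted p = 6.2e-12) were called lower. The direction and call of Mmp3, Mmp15, Mmp19, Mmp28, Adam12, Adamts1, Adamts10 and Adamtsl3 were the same under each of the 17 alternatives that refitted the model and tested them. Mmp19 and Mmp28 were not tested where at least 10 counts were required in every library. With GC-corrected offsets Mmp28 shrank to 0.91 (adjusted p = 0.0281) and Adamtsl3 to 0.96 (adjusted p = 7.15e-10), both below 2-fold. Leaving out single libraries took Adamtsl3 as low as 0.97.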

How the data were processed

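RNA was sequenced from 4 4T1-Sca1+ and 4 4T1-Sca1- libraries, made with a TruSeq RNA kit that does not mark strand. The authors deposited raw counts per Ensembl gene, which were used here, and a table of normalized counts, not used here. The submitters' processing notes name cutadapt 1.16, STAR 2.5.3a and GRCm38/mm10. The counting tool, the annotation and the use of strand are not given in the sources used here. The table held 0 columns of other samples.

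Counts were tested with edgeR 4.0.16 in R 4.3.3 (filterByExpr with a minimum count of 10, TMM, two-sided quasi-likelihood test with no covariate, Benjamini-Hochberg adjustment over 11717 genes), with a threshold of 0.05 on the adjusted p. Standard errors were the absolute log2 fold change divided by the square root of F. Normalized counts are counts divided by DESeq2 1.42.0 size factors. Lengths per kb and positions came from GENCODE M21 (GRCm38), in which 16202 genes were found and 139 were not. Promoters came from the RefSeq table (GRCm38.p6). Reads were not tagged with molecular identifiers as far as the labels say, so PCR copies are no independent molecules and floors of low counts cover counting error only. The total per library, 13561804 to 16968215, limits precision for the scarce members.

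Members, lists and tests were chosen with earlier results of these data known. Log2 fold changes are given for every member tested. Values in every library are given for called members that differed at least 2-fold, the TIMPs, the 3 highest members per kb of the MMPs, of the ADAMs and of the ADAMTSs with ADAMTSLs, and untested members with at least 10 counts in any library. From related lists, called genes that differed at least 2-fold and up to 3 more with the highest mean count were named. Alternatives were other scalings (DESeq2 size factors, upper-quartile, library totals), no filter or at least 10 counts in every library, limma-voom (limma 3.58.1), DESeq2, GC-corrected offsets, the replicate number as a block, a threshold of 0.01, a change of at least 2-fold, and leaving out each library. Running them on the related lists was added after seeing the data.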

Additional observations from a re-analysis of the deposited data

Results flagged for a closer look

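In groups of 4 libraries, 1 value was marked where its gap to the nearest of the others took up more of the group's range than Dixon's critical value allows. This was so in 2 of 76 groups of members examined, where chance gives about 1 in 20, or 3.8 groups, and both were in 4T1-Sca1+ replicate 3. The normalized count of Mmp3 there was 7440, against 9145 to 9314 in the other 3 libraries of the group. That of Mmp1b was 23.9, against 47.3 to 51.2. Both genes lie in the MMP cluster on chromosome 9.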

How the results depend on the processing

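Of the 38 members tested, 24 had the same direction and side of the threshold under every one of the 17 alternatives that refitted the model and tested them, and 23 of the 28 called members kept their call. The other 5 (Mmp1b, Mmp11, Adam1a, Adam22 and Adamts6) lost it at least once, and 0 called members changed direction. Counts of members called were 14 to 19 higher and 9 to 12 lower over all alternatives except a limit on size. Counting only changes of at least 2-fold left 6 higher and 2 lower members, and 5 higher and 3 lower genes of the related lists, against 24 and 18. Leaving out each library gave 15 to 19 higher and 9 to 11 lower members. With GC-corrected offsets 29 genes of the related lists were lower, where 4749 of all 11717 genes tested were lower. Under the same offsets the log2 fold changes of Mmp24 (-0.00177), Adam15 (-0.263), Adam33 (-0.158), Adamtsl5 (-0.127), Timp2 (-0.106), Lrp1 (-0.189), Bmp1 (-0.00565) and Fn1 (-0.0983) reversed in sign. Adam9 became 0.0137 with upper-quartile scaling and 0.0269 with library totals alone. Adam10 became -0.00234 with DESeq2 size factors and -0.00262 with no low-count filter, and ran from -0.0365 to 0.0687 when each library was left out. Adam33 ran from -0.00223 to 0.228. The cause of these changes was not tested. Deviations from the group means correlated at -0.15 to 0.0957 between same-numbered libraries, so no shared effect of the replicate number was seen. This cannot tell whether a number marks a shared sort. With the replicate number as a block 18 members were higher and 10 lower, Mmp1b lost its call (adjusted p = 0.0573) and Adamtsl5 gained one (adjusted p = 0.0396). The median log2 fold change of all genes moved most with GC-corrected offsets, by -0.073. Among the other scalings it moved most with library totals alone, by 0.043. Members with few counts are limited by depth.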
